A study of Mus musculus with 12 samples.

Results

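The difference between NR4A3 knockout (KO) and wild-type (WT) cells was averaged over day 1 and day 14 of culture, using all 12 libraries of the series and the 26728 gene names that occur in the tables of both days. The averaged effect of a gene is the mean of its log2 fold change (KO over WT) at day 1 and its log2 fold change at day 14, and 15973 genes had enough counts to be tested. The description centres on 883 genes that differed in the same direction at both days, and on what these genes share.

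The cells were primary vascular smooth muscle cells from mouse aorta, in 4 groups of 3 libraries: KO and WT at day 1, and KO and WT at day 14. Medium with beta-glycerophosphate, a phosphate donor used to drive mineral deposition in culture, was given to every group according to the protocols, while the treatment label reads beta-GP for the KO libraries and none for the WT libraries. Genotype and that label therefore cannot be told apart. The labels give no strain, sex or age, do not state the extent of the deletion, and leave unsaid whether libraries of a group stem from different mice or dishes. The p-values given here thus rest on library-to-library spread alone, part or all of which may be technical. The day-1 and day-14 libraries share no sample, so a gene that differs the same way at both days does so in 2 separate sets of 6 libraries.

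NR4A3 belongs to the NR4A group of orphan nuclear receptors, early-response transcription factors that bind DNA as monomers at an element called NBRE and that act in vascular, immune and metabolic cells. Interferons signal through STAT and IRF transcription factors to induce antiviral effectors, guanylate-binding and immunity-related GTPases, and the machinery that loads peptides onto MHC class I molecules. In dividing cells, genes of DNA replication are transcribed ahead of S phase under E2F factors, and genes of mitosis later, in G2, through a promoter element called CHR.

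Library totals ranged from 13845693 to 30102093 counts. Across genes, KO libraries of day 1 were closest to WT libraries of day 14 (median r of log2 CPM, counts scaled to library size, 0.974 over 9 pairs), while the other pairs of groups had medians of 0.921 to 0.936. WT replicate 1 of day 14 stood apart from its group and held cardiac muscle transcripts that the other two WT libraries of that day nearly lacked, such as Myh6 with 255 counts against 0 and 0. Without it, 906 genes were higher and 782 lower at both days, in place of 422 and 461. The markers that define contractile smooth muscle were uneven: Acta2 and Cald1 were abundant, but Tagln had 11 counts in KO and 2 in WT at day 1, and 11 in KO and 5 in WT at day 14, summed over 3 libraries each. Myh11 had 27 and 7 counts in KO and WT at day 1, and 8 and 31 in KO and WT at day 14. Sox10, Tie1, Tyrobp and Epcam, which define Schwann, endothelial, white blood and epithelial cells, had at most 4 counts in any group of 3 libraries, whereas the mesothelial gene Msln had 3777 to 25887 counts in each group. The label smooth muscle thus rests here on Acta2, Cald1 and a few others, and a change in cell makeup cannot be told apart from a change in RNA per cell in such bulk samples.

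Nr4a3 itself was lower in KO at both days, as the labels have it. Its level differed more between the days than between the genotypes, with KO of day 14 above WT of day 1. Whether libraries were exchanged between groups or days at labelling was not tested, and the averaged and same-direction values hold only for the labels as given. It had 1.89, 2.002 and 2.34 CPM in the KO libraries, against 4.61, 4.28 and 3.85 CPM in the WT libraries at day 1. Its day-14 levels were 34.3, 60.1 and 54.5 CPM in the KO libraries, against 238, 256 and 217 CPM in the WT libraries, and the groups did not overlap at either day. Averaged over the days, its log2 fold change was -1.64 ± 0.14 (SE, adjusted p = 5.36e-07, edgeR), and it stayed between -1.71 and -1.53 when any 1 library was left out. Reads remained in every KO library.

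On average, 5851 of the 15973 genes (36.6%) differed between KO and WT, 2735 higher and 3116 lower in KO, which is 17.1% and 19.5% of the genes tested (edgeR's quasi-likelihood test, Benjamini-Hochberg adjusted p below 0.05). Only 883 of them (5.53% of the genes tested) were called at each day in that direction, 422 higher in KO (2.64%) and 461 lower (2.89%). A further 2192 had the same sign at both days but were called at 1 of them, and 2641 had opposite signs at day 1 and day 14. Single days called 52.3% of the genes tested at day 1 and 52.1% at day 14, and of 5133 genes called at both days 4250 went in opposite directions. Across all genes the log2 fold changes of the days correlated negatively (r = -0.50, rho = -0.45, a description across genes, which are not independent). Rises and falls of single genes are given below as log2 fold changes (KO over WT), day 1 before day 14. The plot of the effects by day shows the 883 genes in the quadrants where the signs are equal.

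**Figure D1:**
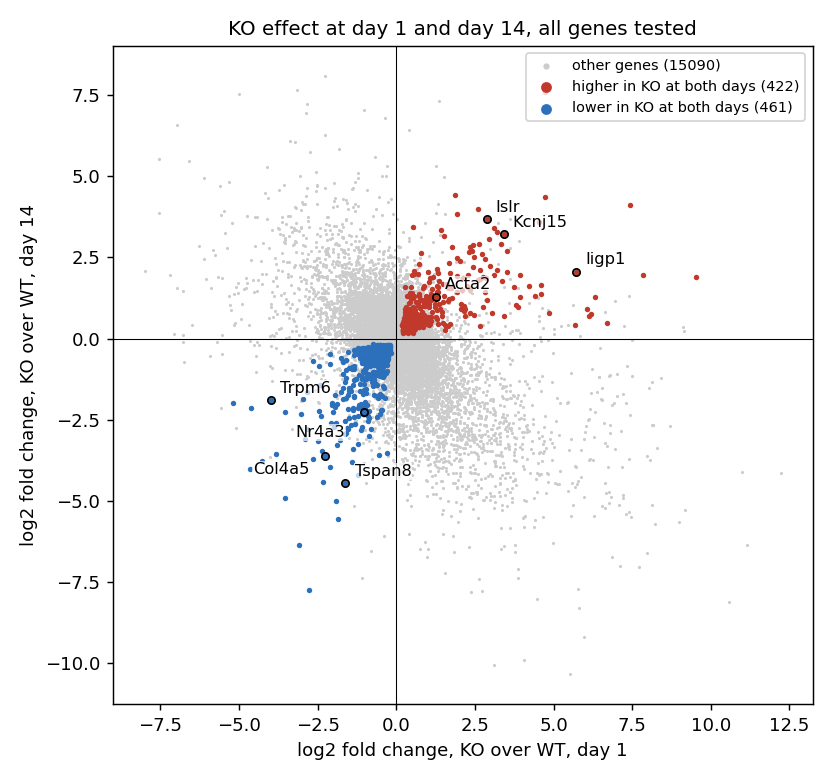
Each point is 1 of 15973 genes, with its log2 fold change (KO over WT) at day 1 on the x axis and at day 14 on the y axis. Red points are the 422 genes higher in KO at both days, blue points the 461 genes lower at both days, and grey points all others, most of the far ones lying where the signs of the days differ.

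The order of the groups was alike for most of these genes, and the both-day rule fixed part of it. For a gene higher at both days, the highest group has to be a KO group and the lowest a WT group, and the reverse for a lower gene. Only the day of each was left free. Of the 422 that were higher, 378 (89.6%) had their highest mean level in KO at day 14 and their lowest in WT at day 1. Of the 461 that were lower, 399 (86.6%) had their lowest level in KO at day 14 and their highest in WT at day 1. KO at day 1 and WT at day 14 lay between. For such genes a KO effect at each day cannot be told apart from a gap between KO of day 14 and WT of day 1 with those 2 groups inside it. The plot of levels by library shows 8 genes. Among them Nr4a3 had another order, with its lowest mean in KO at day 1 (2.08 CPM) and its highest in WT at day 14 (237 CPM).

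**Figure D2:**
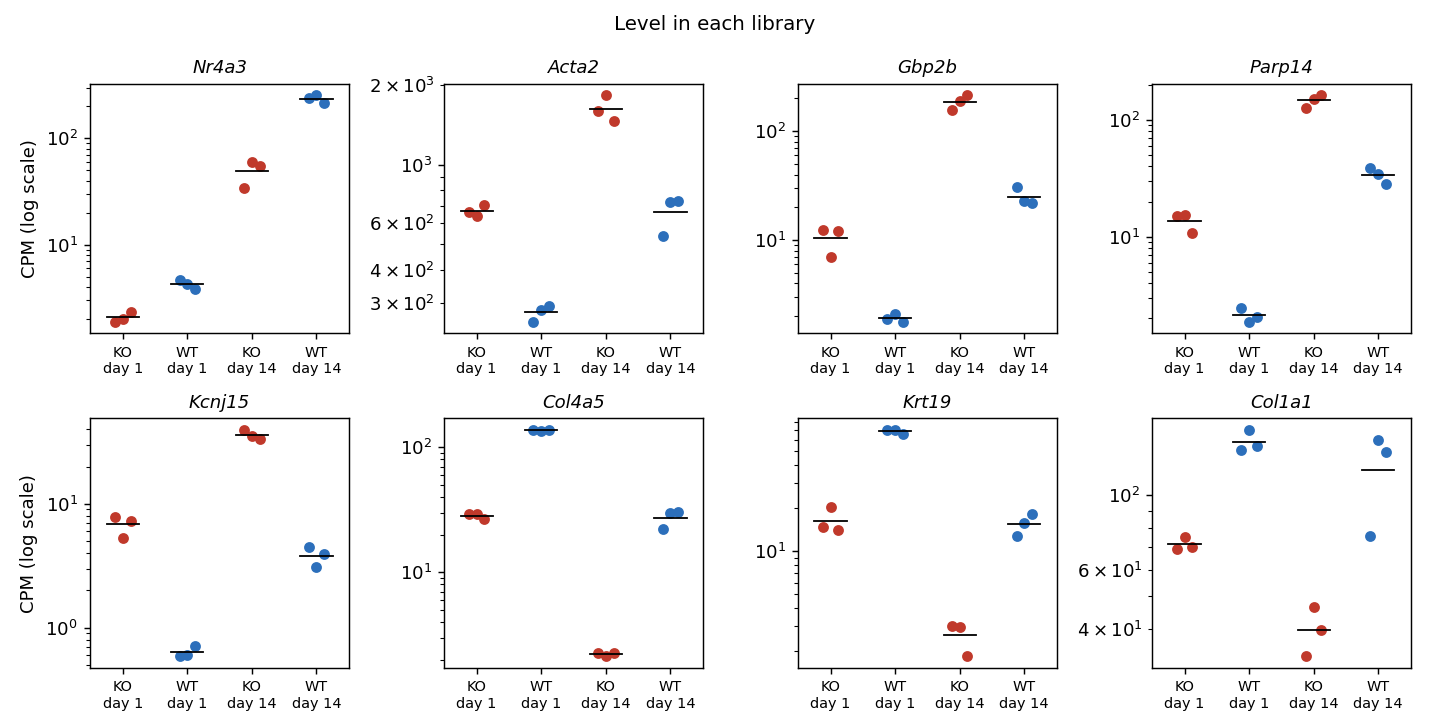
Level of 8 genes in each of the 12 libraries, as CPM (log scale), with KO in red, WT in blue and a line at the mean of 3 libraries. In Acta2, Gbp2b, Parp14 and Kcnj15 every KO library lies above every WT library of the same day, and in Nr4a3, Col4a5 and Krt19 below, while in Col1a1 WT replicate 1 of day 14 comes near the KO libraries.

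Many interferon-induced genes were higher in KO at both days. From the interferon response 26 genes were tested, and 14 were higher at both days (53.8%, where 2.64% of all genes tested were). On average 25 rose, with Stat2 as the exception (log2 fold change -0.10, adjusted p = 0.454, edgeR). Single days called 25 members higher and 0 lower at day 1, but 14 higher and 3 lower at day 14. Their median log2 fold change was 3.14 at day 1, 0.39 at day 14 and 2.04 on average, against medians of 0.017, -0.0033 and -0.0047 over all genes tested. All 19 tested interferon-induced GTPases were higher on average, 12 of them at both days (63.2%), with medians of 3.93 at day 1 and 1.61 at day 14. Of 25 nuclear and PARP proteins of the response, 13 were higher at both days (52.0%). On average 19 of these 25 were higher and 1 lower, and at day 14 alone 15 were higher and 3 lower. These last 2 lists were drawn up after the values had been seen, and their counts are descriptions. Of all genes tested, 17.1% were higher and 19.5% lower on average.

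**Figure D3:**
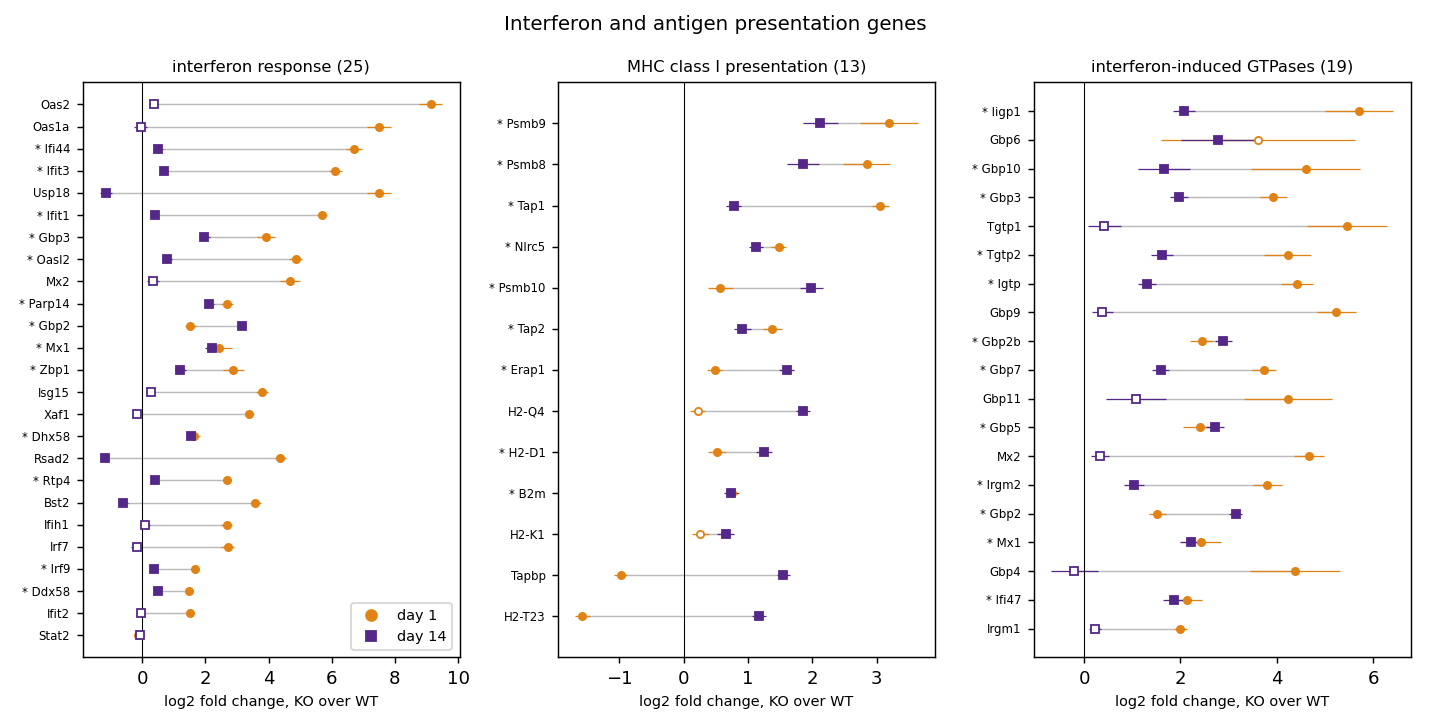
Log2 fold change (KO over WT) ± standard error of the members shown of 3 gene lists at day 1 (orange circles) and day 14 (purple squares). Filled symbols passed at that day (edgeR, adjusted p below 0.05) and asterisks mark members higher at both days. Most antiviral effectors lie far to the right at day 1 and near 0 at day 14, whereas Mx1, Parp14, Dhx58, Gbp2b and Gbp5 lie well above 0 at both days.

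Irf9, a DNA-binding transcription factor of the pathway, had 39.1, 49.6 and 33.5 CPM in the KO libraries, against 12.8, 12.95 and 12.97 CPM in the WT libraries at day 1. At day 14 it had 78.1, 80.5 and 93.7 CPM in the KO libraries, against 66.7, 63.7 and 63.3 CPM in the WT libraries. It rose by 1.66 at day 1 and 0.38 at day 14, so its rise was smaller at the later day (adjusted p = 1.2e-05 for the change, edgeR). The cytosolic RNA sensors Ddx58 and Dhx58 rose by 1.48 and 1.64 at day 1, and by 0.49 and 1.56 at day 14.

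Among effectors, some rose at least 2-fold at both days. Mx1, a dynamin-like GTPase that blocks viral replication, had 2.28, 1.06 and 1.36 CPM in the KO libraries, against 0.336, 0.177 and 0.357 CPM in the WT libraries at day 1. At day 14 it had 31.1, 35.6 and 45.4 CPM in the KO libraries, against 10.5, 6.07 and 7.42 CPM in the WT libraries. Its averaged log2 fold change was 2.32 ± 0.23 (SE, adjusted p = 3.37e-06, edgeR), and its effect changed by -0.21 between the days (95% interval -1.19 to 0.76). Parp14, an ADP-ribosyltransferase, had 14.9, 15.3 and 10.8 CPM in the KO libraries, against 2.47, 1.88 and 2.06 CPM in the WT libraries at day 1, and 127, 150.4 and 164 CPM in the KO libraries, against 38.7, 34.4 and 28.3 CPM in the WT libraries at day 14. Its rise was 2.68 at day 1 and 2.12 at day 14, and the groups did not overlap. The change of its effect was -0.55 (95% interval -1.06 to -0.05, adjusted p = 0.0533, edgeR). Dtx3l, the ubiquitin ligase that pairs with Parp9, rose by 1.30 and 1.42 at day 1 and day 14, and Herc6, an ISG15 ligase of mouse, by 1.93 and 1.93. Ifit1 and Ifi44, in contrast, rose by 5.68 and 6.70 at day 1 but only by 0.42 and 0.49 at day 14 (adjusted p = 1.83e-11 and 3.06e-10 for the change between days, edgeR).

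The guanylate-binding proteins, which attack the vacuoles and membranes of intracellular microbes, held several of the largest rises. Gbp2b had 12.3, 6.95 and 12.04 CPM in the KO libraries, against 1.89, 2.09 and 1.78 CPM in the WT libraries at day 1. Its day-14 levels were 156, 189 and 215 CPM in the KO libraries, against 30.7, 22.7 and 21.8 CPM in the WT libraries, so that KO exceeded WT by a log2 fold change of 2.44 at day 1 and 2.89 at day 14. Gbp5, which also promotes inflammasome assembly, had 1.78, 0.779 and 1.80 CPM in the KO libraries, against 0.210, 0.319 and 0.278 CPM in the WT libraries at day 1, and 45.6, 46.8 and 53.1 CPM in the KO libraries, against 5.90, 8.10 and 8.27 CPM in the WT libraries at day 14. No KO library of either gene overlapped a WT library of its day. The immunity-related GTPase Iigp1 had 133 counts in KO and 3 in WT at day 1, a ratio of 66.4-fold (95% exact counting interval 22.2 to 326, counting error only). At day 14 Iigp1 had 74.3, 100.3 and 113 CPM in the KO libraries, against 31.7, 15.9 and 20.5 CPM in the WT libraries, a log2 fold change of 2.07. Gbp genes and their relatives have close copies, and how reads shared between copies were counted is not given, so the split between single copies is uncertain.

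Promoters of these genes are shown because most of the GTPase promoters hold the motif bound by the interferon factors. The stretches come from RefSeq (GRCm38.p6), read 5′ to 3′ on the strand of the gene (plus for all of them) and lying before its start, with 1 match to the core GAAANNGAAA of the interferon-stimulated response element (either strand) in capitals in each. Those of Gbp3 and Ifit1 hold another match in lower case, in Gbp3 overlapping the one in capitals.
Gbp2b, chr3:142594675-142594754: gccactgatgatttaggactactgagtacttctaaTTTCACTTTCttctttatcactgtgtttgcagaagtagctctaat
Gbp5, chr3:142496734-142496813: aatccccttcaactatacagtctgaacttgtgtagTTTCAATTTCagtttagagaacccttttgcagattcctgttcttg
Gbp3, chr3:142559970-142560043: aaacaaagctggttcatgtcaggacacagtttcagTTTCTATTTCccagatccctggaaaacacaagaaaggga
Gbp2, chr3:142620569-142620648: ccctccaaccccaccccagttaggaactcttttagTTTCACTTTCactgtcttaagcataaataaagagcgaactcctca
Igtp, chr11:58199487-58199555: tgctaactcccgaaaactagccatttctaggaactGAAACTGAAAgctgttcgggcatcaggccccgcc
Ifit1, chr19:34640769-34640848: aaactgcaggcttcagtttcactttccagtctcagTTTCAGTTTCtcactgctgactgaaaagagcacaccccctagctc
B2m, chr2:122147513-122147592: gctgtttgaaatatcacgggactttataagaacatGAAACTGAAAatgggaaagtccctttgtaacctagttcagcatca
The motif occurred in 10 of 12 promoters of tested interferon-induced GTPases (83.3%), 55% of those of the interferon list and 25% of those of the MHC class I list. It was in 7.69% of promoters of all genes higher at both days and 2.48% of those lower at both days, against 3.08% of the promoters of all genes tested, each window being 300 bases long. The motif was chosen after the values had been seen, a match is no evidence of binding, and the counts themselves were made on build mm9.

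Genes that load peptides onto MHC class I molecules were higher in KO as well. Of 13 tested, 9 were higher at both days (69.2%) and 12 on average, where 2.64% and 17.1% of all genes tested were. The exception on average was H2-T23 (averaged log2 fold change -0.20, adjusted p = 0.0531, edgeR). B2m, the invariant light chain, had 746, 622 and 782 CPM in the KO libraries, against 413, 444 and 417 CPM in the WT libraries at day 1. By day 14 it had 2735, 2440.0 and 2643 CPM in the KO libraries, against 1849, 1372 and 1455 CPM in the WT libraries. Its log2 fold change was 0.76 at day 1 and 0.74 at day 14. The immunoproteasome subunits Psmb8 and Psmb9, which cut the peptides, had larger rises from low levels: Psmb9 had 2.72, 1.06 and 2.39 CPM in the KO libraries, against 0.126, 0.212 and 0.317 CPM in the WT libraries at day 1, and 18.9, 20.9 and 20.9 CPM in the KO libraries, against 6.45, 4.26 and 3.17 CPM in the WT libraries at day 14. Its averaged log2 fold change was 2.66 ± 0.26 (SE, adjusted p = 2.22e-06, edgeR), and that of Psmb8 was 2.35 ± 0.22 (SE, adjusted p = 1.58e-06, edgeR). The peptide transporter Tap1 rose by 3.06 at day 1 and 0.77 at day 14, while the trimming peptidase Erap1 (by 0.48 and 1.60) and the subunit Psmb10 (by 0.57 and 1.98) rose more at day 14 than at day 1. Nlrc5, the transactivator of MHC class I genes, rose by 1.48 and 1.13. Tapbp and H2-T23 were lower at day 1 and higher at day 14.

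Inflammatory genes outside this group mostly went opposite ways at the days. Among 18 cytokine, chemokine and related genes, KO showed 13 lower and 2 higher at day 1, but 14 higher and 1 lower at day 14. Of all genes tested, 52.3% were called at day 1 and 52.1% at day 14, in either direction. The superoxide dismutase Sod2, an antioxidant enzyme of mitochondria, was higher at both days, by 0.58 at day 1 and 2.10 at day 14 (adjusted p = 5.52e-09 for the change, edgeR).

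The other large rises were in genes of varied roles. Kcnj15, an inwardly rectifying potassium channel, had 7.88, 5.34 and 7.26 CPM in the KO libraries, against 0.587, 0.602 and 0.714 CPM in the WT libraries at day 1. At day 14 it had 39.6, 35.1 and 33.4 CPM in the KO libraries, against 4.45, 3.07 and 3.91 CPM in the WT libraries. With an averaged log2 fold change of 3.32 ± 0.14 (SE, adjusted p = 3.33e-10, edgeR), it had the largest rise at its weaker day among non-overlapping genes whose mean level reached 3 on the log2 CPM scale. Cyfip2, part of the WAVE complex that directs actin branching, rose by 3.32 and 2.91 at day 1 and day 14. Islr, a secreted leucine-rich repeat protein, rose by 2.88 and 3.69, and Trpc5os by 2.62 and 2.92. Sparcl1, a secreted matricellular protein, rose less at day 14 (2.06) than at day 1 (3.52).

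A pair of genes known from myeloid cells was among them. Ncf4, a cytosolic subunit of the phagocyte NADPH oxidase, had 71.2, 52.001 and 82.9 CPM in the KO libraries, against 13.3, 11.2 and 12.6 CPM in the WT libraries at day 1. Its day-14 levels were 365, 315 and 357 CPM in the KO libraries, against 46.5, 68.6 and 67.5 CPM in the WT libraries, and its log2 fold change was 2.48 at day 1 and 2.51 at day 14. Clec4e, a C-type lectin that senses damaged cells, rose by 2.84 and 2.45. Of 6 macrophage markers, Ptprc had 26 counts in KO and 0 in WT at day 1, and 1 in KO and 2 in WT at day 14, and the summed level of the 6 markers was 43.7 to 56.1 CPM in KO libraries and 19.4 to 25.8 CPM in WT libraries at day 1, but 31.3 to 35.04 CPM in KO libraries and 41.5 to 71.8 CPM in WT libraries at day 14. Cd68 made up nearly all of that sum, and at day 14 it was lower in KO while Ncf4 and Clec4e were higher. Csf1r, also of the 6, went the other way at day 14, with 137 counts in KO and 59 in WT, against 28 and 33 at day 1. Adgre1, Tyrobp and C1qa had at most 11 counts in any group. Cd14, a coreceptor for lipopolysaccharide, fell (-1.31 and -0.34), and its day-14 fall did not pass with each day fitted alone (adjusted p = 0.0576) or without WT replicate 3 of day 14 (0.0658).

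The shares of each list that were higher or lower at both days are drawn in the plot of gene lists.

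**Figure D4:**
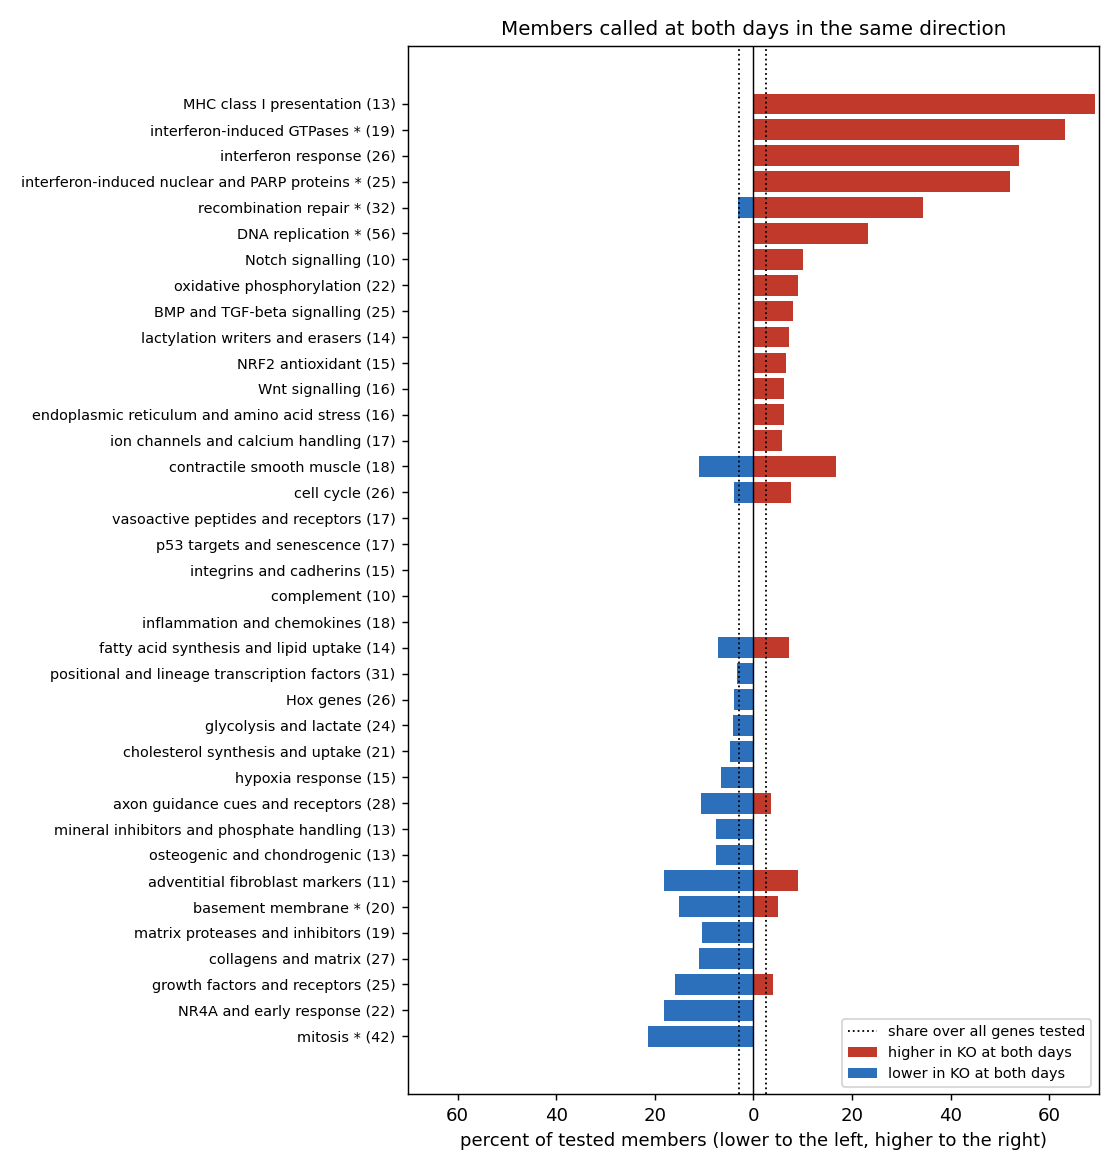
Percent of the tested members of each gene list (number in brackets, lists of 10 or more) that were higher (red, right) or lower (blue, left) in KO at both days. Dotted lines mark the shares over all genes tested, 2.64% higher and 2.89% lower, and an asterisk marks lists drawn up after the values had been seen. MHC class I and interferon lists reach 52.0% to 69.2% on the higher side, followed by recombination repair and DNA replication, and mitosis reaches 21.4% on the lower side.

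On average, most genes of DNA replication were higher in KO, while the mitosis genes called were mostly lower. Of 56 replication genes, 46 were higher in KO on average and 13 at both days (23.2%), and the other 10 were not called on average. Their median log2 fold change was 0.17 at day 1 and 0.88 at day 14, and 51 members were higher at day 14 but 15 at day 1, against 6 lower at day 1. The replication count at both days was 26 without WT replicate 1 of day 14 and 8 without WT replicate 3 of day 1. Of 42 genes of mitosis, 22 were lower on average, 9 of them at both days (21.4%), and 2 were higher on average. At day 1 mitosis genes called were all lower, 23 in number, whereas at day 14 there were 11 higher and 11 lower. All these lists were drawn up after values had been seen. The cell cycle list, which was not among those added later, had 26 genes tested, 12 higher and 5 lower on average. All genes tested had 17.1% higher and 19.5% lower. At both days 2 of the 26 were higher (7.69%, Mcm7 and Ccnd1) and 1 lower (3.85%, Ccnb2). Those both-day shares were 2.64% and 2.89% over all genes tested.

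**Figure D5:**
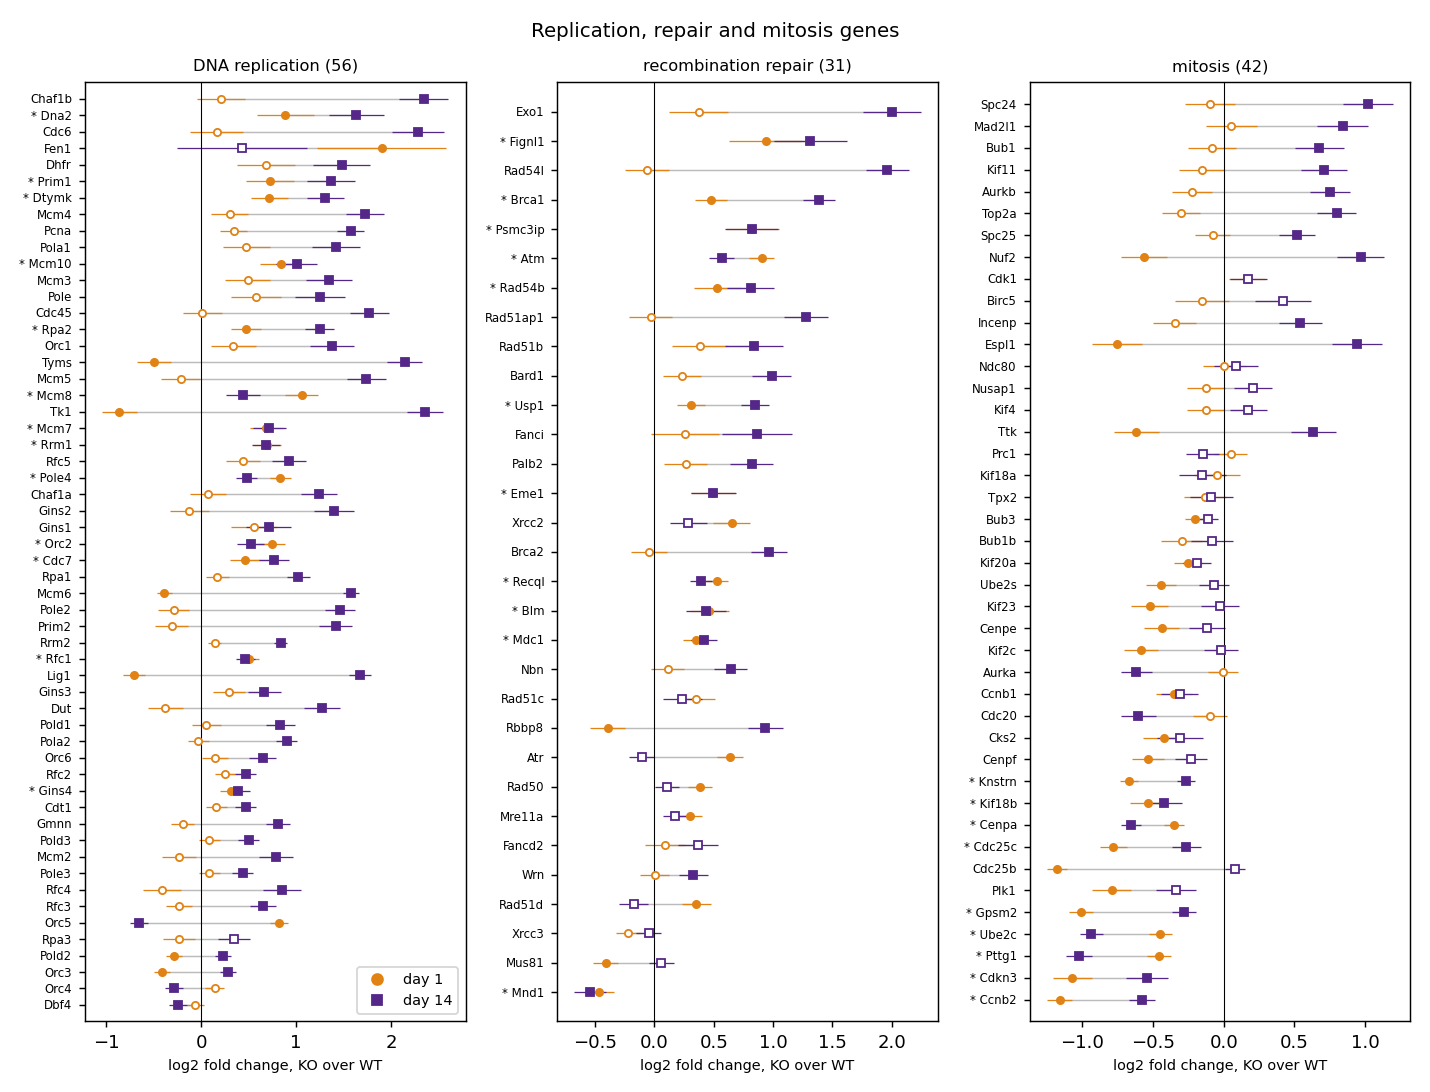
Log2 fold change (KO over WT) ± standard error of the genes shown of DNA replication, recombination repair and mitosis at day 1 (orange circles) and day 14 (purple squares). Filled symbols passed at that day (edgeR, adjusted p below 0.05) and asterisks mark members called in the same direction at both days. Replication genes lie to the right at day 14 and around 0 at day 1, and the lower part of the mitosis panel lies to the left at both days.

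Among replication genes, Mcm7, a subunit of the helicase that unwinds DNA, had 124, 137 and 113 CPM in the KO libraries, against 81.5, 74.4 and 76.9 CPM in the WT libraries at day 1. By day 14 it had 159, 165 and 153 CPM in the KO libraries, against 138, 79.8 and 71.5 CPM in the WT libraries, where WT replicate 1 lay close to the KO libraries. Its log2 fold change was 0.68 at day 1 and 0.72 at day 14. Rrm1, the large subunit of ribonucleotide reductase, rose by 0.69 and 0.68, and the clamp loader subunit Rfc1 by 0.51 and 0.46. Prim1, the primase, rose by 0.73 at day 1 and 1.37 at day 14. The origin-binding Orc2 rose by 0.74 and 0.52. By contrast Tyms and Tk1, which supply thymidylate, were lower at day 1 (-0.50 and -0.86) and higher at day 14 (2.15 and 2.36).

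Genes of recombination repair were also mostly higher in KO. Of 32 genes, 24 were higher on average and 11 at both days (34.4%), where 17.1% and 2.64% of all genes tested were. The count at both days was 5 without WT replicate 2 or replicate 3 of day 1 and 7 without KO replicate 2 of day 1. This list too was drawn up after values had been seen. Brca1, which directs repair of double-strand breaks, had 47.96, 44.05 and 44.8 CPM in the KO libraries, against 33.7, 32.7 and 31.8 CPM in the WT libraries at day 1, and 89.9, 91.7 and 86.02 CPM in the KO libraries, against 44.7, 27.2 and 29.996 CPM in the WT libraries at day 14. The damage-signalling kinase Atm rose by 0.90 and 0.57. The exception in direction was Mnd1, a cofactor of recombination known from meiosis, which fell (-0.47 and -0.54).

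Among the genes of mitosis, Ccnb2, a B-type cyclin that activates Cdk1, had 39.7, 36.2 and 37.2 CPM in the KO libraries, against 81.8, 82.8 and 88.04 CPM in the WT libraries at day 1. At day 14 it had 25.1, 27.6 and 25.3 CPM in the KO libraries, against 40.97, 34.4 and 41.1 CPM in the WT libraries. Its log2 fold change was -1.16 at day 1 and -0.58 at day 14, a smaller fall at day 14 (adjusted p = 0.00106, edgeR). Ube2c, the ubiquitin-conjugating enzyme of the anaphase-promoting complex, had 95.5, 87.9 and 93.8 CPM in the KO libraries, against 123, 126 and 129.7 CPM in the WT libraries at day 1, and 49.5, 59.02 and 55.1 CPM in the KO libraries, against 105, 96.5 and 111 CPM in the WT libraries at day 14. Pttg1 (securin) fell (-0.46 and -1.02), the centromeric histone Cenpa (-0.35 and -0.66), and the phosphatase Cdc25c (-0.78 and -0.26). Cdkn3, a phosphatase that acts on cyclin-dependent kinases, fell (-1.07 and -0.54). The G1 cyclin Ccnd1 was higher at both days, by 0.37 and 0.35.

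Promoter stretches of 3 of these genes are given because the element of late cell-cycle genes (TTTGAA, either strand, in capitals) was frequent in the mitosis list. They come from the same RefSeq table, with Ccnb2 on the minus strand and the others on the plus strand.
Ube2c, chr2:164769865-164769928: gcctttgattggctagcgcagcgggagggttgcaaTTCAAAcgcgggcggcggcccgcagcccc
Ccnb2, chr9:70421681-70421756: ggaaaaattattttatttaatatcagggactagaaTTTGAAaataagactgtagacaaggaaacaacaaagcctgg
Cdkn3, chr14:46760395-46760470: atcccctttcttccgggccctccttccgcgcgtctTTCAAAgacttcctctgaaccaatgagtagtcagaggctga
The element was present in 65.8% of 38 mitosis promoters and 12.4% of all promoters of tested genes. Matches to the E2F motif (TTTCGCGC or TTTGGCGC, either strand) were in 19.3% of 57 replication promoters and 1.41% of all. Both are features of the lists as such. Among the genes called at both days, 6 of the 8 mitosis genes with a promoter held the CHR element, and 2 of the 20 replication and repair genes with a promoter held the E2F motif. These motifs too were chosen after the values had been seen.

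The contractile genes were divided. Acta2, the actin of smooth muscle, had 660.5, 638 and 704 CPM in the KO libraries, against 255, 283 and 292 CPM in the WT libraries at day 1. Its day-14 levels were 1594, 1832 and 1456 CPM in the KO libraries, against 538, 722 and 727 CPM in the WT libraries. Its log2 fold change was 1.27 at day 1 and 1.30 at day 14, and the groups did not overlap. The difference between those 2 effects was 0.03 (95% interval -0.31 to 0.36). Cald1, an actin-binding regulator, rose by 0.21 and 0.36. Smtn, a cytoskeletal protein of contractile cells, fell (-0.91 and -0.74), and Vcl, which anchors actin at adhesions (-0.87 and -0.43). WT replicate 1 of day 14 came near the KO libraries of that day in Smtn (58.9 CPM, against 51.8, 52.5 and 52.5 CPM). It did so in Vcl as well (254 CPM, against 231, 244 and 219 CPM). Cnn1 had 0.555, 1.11 and 0.536 CPM in the KO libraries, against 0.210, 0.283 and 0.278 CPM in the WT libraries at day 1, and its rise of 1.48 at day 1 did not pass without KO replicate 2 of day 1 (adjusted p = 0.132) or without any 1 of the WT libraries of that day (0.0612 to 0.0845). Of the 18 tested contractile genes 7 were higher and 6 lower on average, where 17.1% and 19.5% of all genes tested were. At both days 3 of the 18 were higher (16.7%) and 2 lower (11.1%), against 2.64% and 2.89% of all genes tested. Without WT replicate 2 or 3 of day 1, 1 was higher at both days in place of 3. The summed level of 9 smooth muscle markers was 2014 to 2051 CPM in KO libraries and 1490 to 1524 CPM in WT libraries at day 1, and 3339 to 3819 CPM in KO libraries and 1954 to 2470 CPM in WT libraries at day 14.

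Genes of calcification gave few effects shared by the days. Runx2, the transcription factor of osteoblasts, was lower in KO, with 97.6, 86.3 and 101 CPM in the KO libraries, against 145, 157 and 142 CPM in the WT libraries at day 1. By day 14 it had 86.3, 88.9 and 91.1 CPM in the KO libraries, against 83.8, 123 and 144 CPM in the WT libraries, and WT replicate 1 lay below all KO libraries. Its log2 fold change of -0.40 at day 14 (adjusted p = 0.0269, edgeR) did not pass with limma-voom (0.0526), with each day fitted alone (0.0865), without WT replicate 2 (0.0815) or 3 (0.154) or without KO replicate 1 (0.0741), 2 (0.0620) or 3 (0.0518) of day 14. Without WT replicate 1 it was -0.60. Of the 13 osteogenic and chondrogenic genes tested, 4 were higher and 2 lower on average, against 17.1% and 19.5% of all genes tested. Nt5e, the ectonucleotidase CD73 that makes adenosine and restrains arterial calcification, had 26.9, 20.4 and 27.98 CPM in the KO libraries, against 47.1, 50.8 and 48.6 CPM in the WT libraries at day 1, and 11.4, 8.54 and 7.33 CPM in the KO libraries, against 14.01, 35.7 and 38.5 CPM in the WT libraries at day 14. It fell (-0.96 and -1.69), and WT replicate 1 of day 14 was the lowest of its group, near the KO libraries.

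Several matrix genes fell at both days. Col4a5, a chain of basement membrane collagen IV, had 29.1, 29.3 and 26.6 CPM in the KO libraries, against 137, 134 and 138 CPM in the WT libraries at day 1. At day 14 it had 2.25, 2.12 and 2.27 CPM in the KO libraries, against 22.2, 29.9 and 30.05 CPM in the WT libraries, and its averaged log2 fold change was -2.94 ± 0.09 (SE, adjusted p = 1.73e-11, edgeR). Col4a6, transcribed from the same promoter region in the opposite direction, fell (-2.98 and -1.87), and the laminin chain Lama5 (-0.50 and -0.90). In the same basement membrane list, drawn up after the values had been seen, Nid2, a linker of laminin and collagen IV, rose by 1.24 and 1.07. The list had 3 of 20 lower at both days (15%, against 2.89% of all genes tested), and 5 without WT replicate 1 of day 14.

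Among interstitial matrix genes, Col1a1, a chain of collagen I, had 68.9, 74.97 and 69.998 CPM in the KO libraries, against 137, 157 and 140.1 CPM in the WT libraries at day 1. Its day-14 levels were 33.03, 46.3 and 39.5 CPM in the KO libraries, against 75.3, 146 and 135 CPM in the WT libraries. The small proteoglycans Dcn, which binds collagen fibrils, and Ogn, which is abundant in vessel walls, were lower too, with log2 fold changes of -0.73 and -1.45 in Dcn and -1.50 and -1.62 in Ogn at day 1 and day 14. Ogn had 8.58, 11.5 and 9.76 CPM in the KO libraries, against 13.6, 32.04 and 46.1 CPM in the WT libraries at day 14, where WT replicate 1 came close to KO. Timp3, an inhibitor of metalloproteinases held in the matrix, fell far more at day 14 (-2.21) than at day 1 (-0.49). Mmp11 fell (-0.60 and -0.53). Of 27 collagens and matrix genes 3 were lower at both days (11.1%, against 2.89% of all genes tested). At single days 19 were lower and 4 higher at day 1, while 15 were higher and 6 lower at day 14. The single days called 52.3% and 52.1% of all genes tested, in either direction.

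Fibroblast markers mostly reversed between the days. Of 11 adventitial fibroblast markers tested, 10 were lower and 1 higher in KO at day 1, but 8 were higher and 2 lower at day 14. The 2 lower at day 14 were Cd34 and Gsn. Of all genes tested, 52.3% were called at day 1 and 52.1% at day 14, in either direction. Cd34 fell (-0.88 and -2.38), but the summed level of 6 fibroblast markers was 60.7 to 79.8 CPM in KO libraries and 130 to 133 CPM in WT libraries at day 1, and 85.1 to 91.0 CPM in KO libraries and 61.5 to 81.7 CPM in WT libraries at day 14. The sum was thus lower in KO at day 1 and not at day 14, while Col1a1 and Dcn were lower at both. Gsn, which severs actin, fell (-1.21 and -0.49), and its day-14 value did not pass with limma-voom (adjusted p = 0.0620) or each day fitted alone (0.0966), nor when WT replicate 2 or 3 or KO replicate 1 or 2 of day 14 was left out (0.0633 to 0.127), and it was -0.75 without WT replicate 1 of that day. Col14a1 stood below 1 CPM in most groups, and its rise of 1.33 at day 1 did not pass when WT replicate 1 or 2 or KO replicate 1 or 3 of that day was left out (adjusted p = 0.0730 to 0.124).

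The largest falls included membrane and signalling proteins. Krt19, a keratin of simple epithelia and mesothelium, had 14.7, 20.3 and 14.04 CPM in the KO libraries, against 70.8, 70.4 and 66.1 CPM in the WT libraries at day 1. By day 14 it had 2.98, 2.96 and 1.83 CPM in the KO libraries, against 12.8, 15.8 and 18.3 CPM in the WT libraries, an averaged log2 fold change of -2.34 ± 0.13 (SE, adjusted p = 7.74e-09, edgeR). The summed epithelial and mesothelial markers, mostly Msln, were 358 to 367 CPM in KO libraries and 401 to 408 CPM in WT libraries at day 1, and 78.5 to 82.4 CPM in KO libraries and 278 to 416 CPM in WT libraries at day 14. The sum contains Krt19. Msln alone averaged 340.0 CPM in KO libraries and 335 CPM in WT libraries at day 1, and 77.0 CPM in KO libraries and 346 CPM in WT libraries at day 14, so it was lower in KO at day 14 and near equal at day 1, while Krt19 was lower at both. Its part in the day-14 fall of Krt19 was not tested.

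The tetraspanins Tspan8 and Tspan11 fell, Tspan8 (-1.61 and -4.45) and Tspan11 (-3.03 and -2.32). Mef2c, a transcription factor of muscle development, had 5.83, 4.17 and 5.36 CPM in the KO libraries, against 20.8, 21.8 and 19.6 CPM in the WT libraries at day 1, and 1.40, 0.565 and 0.809 CPM in the KO libraries, against 6.10, 3.77 and 3.61 CPM in the WT libraries at day 14. Fam213a, a redox protein with a thioredoxin-like fold, fell (-2.85 and -2.77). The organic anion transporter Slco4a1 fell (-2.50 and -3.15), the magnesium channel Trpm6 (-3.97 and -1.88), and the pancreatic polypeptide receptor Npy4r (-1.90 and -2.59). Pak3, a kinase activated by Rac and Cdc42, fell (-1.56 and -2.75), and Tcim (-1.88 and -2.00). KO and WT libraries did not overlap at either day in any of the 24 genes with the largest rises and falls, because the rule that named them asked for it.

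Some early-response genes were lower at both days. Of 22 such genes 9 were lower and 3 higher on average (5 higher without WT replicate 1 or 2 of day 14), and 4 were lower at both days (18.2%), Nr4a3 among them. All genes tested had 19.5% lower and 17.1% higher on average, and 2.89% lower at both days. Fos, a partner in the AP-1 complex, had 1.998, 2.22 and 1.41 CPM in the KO libraries, against 4.70, 3.57 and 4.20 CPM in the WT libraries at day 1, and 1.16, 1.41 and 1.67 CPM in the KO libraries, against 4.05, 4.40 and 4.70 CPM in the WT libraries at day 14, an averaged log2 fold change of -1.39 ± 0.17 (SE, adjusted p = 1.76e-05, edgeR). Klf4, a factor that represses contractile genes when smooth muscle cells change state, fell (-0.65 and -0.68), and Klf6 (-0.26 and -0.48). Nr4a1 and Nr4a2, the other members of the receptor group, were lower at day 1 (-1.43 and -2.64) and higher at day 14 (0.79 and 1.54).

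Receptors and ligands changed singly. Acvrl1, a type I receptor for BMP ligands, had 8.66, 12.3 and 11.6 CPM in the KO libraries, against 2.77, 3.18 and 2.46 CPM in the WT libraries at day 1, and 39.7, 35.4 and 39.5 CPM in the KO libraries, against 10.2, 14.7 and 17.7 CPM in the WT libraries at day 14, an averaged log2 fold change of 1.69 ± 0.13 (SE, adjusted p = 3.04e-07, edgeR). Bmpr2, the type II receptor that pairs with it, rose by 0.19 and 0.41, the day-1 value not passing without a filter (adjusted p = 0.110) or without WT replicate 1 (0.0685) or 3 (0.0976) of day 1. In the BMP and TGF-beta list 11 of 25 were higher and 4 lower on average, and 7 were lower without WT replicate 1 of day 14. On average 17.1% of all genes tested were higher and 19.5% lower. Inhbb, an activin subunit, rose by 1.06 and 0.97, the growth factor Ptn by 1.32 and 1.58, and the Wnt receptor Fzd1 by 0.51 and 1.97. Maml2, a Notch coactivator, rose by 0.34 and 0.69, Igfbp7 by 0.53 and 0.67, and the ephrin Efnb1 by 0.83 and 1.20.

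Growth factor genes that fell were Fgf10 (-0.97 and -0.90 at day 1 and day 14), the hepatocyte growth factor receptor Met (-0.58 and -0.52), Pdgfc (-0.94 and -0.49) and the Kit ligand Kitl (-0.30 and -0.68), which is 4 of 25 genes (16.0%). Of all genes tested 2.89% were lower at both days. In Fgf10, WT replicate 1 of day 14 (13.0 CPM) came near the KO libraries of that day (11.1, 10.2 and 10.6 CPM). The guidance receptors Epha4 (-0.44 and -2.19) and Sema6a (-0.53 and -1.71) fell more at day 14. The fall of Sema6a at day 1 did not pass without KO replicate 3 of day 1 (adjusted p = 0.0563). Of the positional factors, Hoxa9 fell (-0.71 and -0.76), and Meis2, a cofactor of Hox proteins (-0.45 and -0.35).

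Metabolic genes mostly had effects that reversed between the days, so that few were shared. For comparison, 52.3% of all genes tested were called at day 1 and 52.1% at day 14, in either direction, and 19.5% were lower on average. All 21 genes of cholesterol synthesis and uptake were lower in KO at day 1, 15 were higher at day 14, and 20 were lower on average, all but Mvk (medians of -2.49 at day 1 and 0.69 at day 14). Lpl, the lipase that frees fatty acids from lipoproteins, had 374, 316 and 395 CPM in the KO libraries, against 96.8, 106 and 112 CPM in the WT libraries at day 1, and 1145, 971 and 1117 CPM in the KO libraries, against 318, 508 and 544 CPM in the WT libraries at day 14, an averaged log2 fold change of 1.51 ± 0.11 (SE, adjusted p = 1.22e-07, edgeR). Plin2, which coats lipid droplets, fell (-0.43 and -0.87).

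Of 24 glycolytic genes 18 were lower at day 1 and 15 higher at day 14, and the aldolase Aldoc alone among them fell at both days (-3.55 and -2.27). At day 14 Aldoc had 1.10 CPM in WT replicate 1, near the KO libraries (0.548, 0.918 and 1.02 CPM). The other WT libraries of that day had 5.03 and 6.09 CPM. Mxi1, a Max-binding repressor induced by hypoxia, fell (-0.64 and -0.48), its day-14 value not passing with each day fitted alone (adjusted p = 0.0664) or without WT replicate 2 (0.0815) or 3 (0.0636) or KO replicate 2 (0.0683) of day 14. Of the respiratory chain, cytochrome c (Cycs) rose by 0.42 and 1.41, its day-1 value not passing without WT replicate 1 (0.116) or KO replicate 1 (0.0608) of day 1. Ndufs1, of complex I, rose by 0.26 and 0.37, and its day-1 value did not pass without a filter (0.0529) or without any 1 WT library of day 1 (0.0604 to 0.0739). The acetyltransferase Kat2a rose by 0.34 and 0.40. Sdf2l1, of the endoplasmic reticulum, rose by 0.54 and 0.81, its day-1 value not passing without WT replicate 1 of day 1 (0.0566).

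Beside Acta2 and Ncf4, other genes had effects close in size at both days. In Herc6 the effects differed by -0.0034 on the log2 scale (95% interval -0.29 to 0.29), and in Rab27b, which docks secretory vesicles, by -0.03 (-0.47 to 0.41). Rab27b had 7.11, 9.07 and 8.53 CPM in the KO libraries, against 22.1, 21.9 and 20.5 CPM in the WT libraries at day 1, and 5.29, 5.44 and 4.26 CPM in the KO libraries, against 15.3, 12.8 and 11.6 CPM in the WT libraries at day 14. Tcim and Fam213a had differences of -0.13 (-0.64 to 0.38) and 0.08 (-0.85 to 1.01). Spata13, an exchange factor for small GTPases, fell (-0.95 and -1.07), and Avil, an actin-binding protein (-1.64 and -1.35). Over the 883 genes, the size of the effect differed between the days in 233 (26.4%), where the change was called in 60.1% of all genes tested, a share that the rule of equal direction lowers by itself. The effect was larger at day 1 in 415 and at day 14 in 468.

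The 20 tested genes nearest to Nr4a3 on chromosome 4, 10 on each side in RefSeq order, were counted by the same rules. None was called at both days in the same direction (edgeR, 0 also at an unadjusted p below 0.05, and 0 with DESeq2 and with limma-voom). That share was 5.53% over all genes tested, so 0 of 20 says little. On average 7 were lower and 0 higher, where 19.5% and 17.1% of all genes tested were. Both days called 8 of the 20 in opposite directions, against 4250 of the 15973 genes tested. The NBRE motif AAAGGTCA was in 3 of 483 promoters of genes lower at both days (0.621%, exact 95% interval 0.128% to 1.80%), 8 of 390 of genes higher at both days (2.05%) and 151 of 13792 of all genes tested (1.09%). A match in a window of 300 bases says nothing of binding elsewhere.

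At the edge of the rule, Nap1l1 was just inside with a day-14 adjusted p of 0.0499 (log2 fold change 0.17), as were Rarg (0.0453), Odc1 (0.0452) and Dctn2 (0.0471). Just outside lay Msn, with a day-14 adjusted p of 0.0575 (log2 fold change -0.15), Ogt (0.0517), Kpnb1 (0.0532) and, by its day-1 value, Ndrg1 (0.0536). These p-values come from edgeR, and all 8 genes change sides in at least 1 alternative.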

How the data were processed

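RNA-seq gene counts were deposited by the authors as 1 table per day, with no normalization. The mouse genome build was mm9, per the submitters' processing notes, while aligner, counter, annotation and strand setting were not given in the sources used here. Day 1 had 28494 lines and day 14 had 30866. Repeated lines (43 and 53) and 2 names per table with differing counts were removed, leaving 26728 shared names, of which 98.2% occur in GENCODE M21. Since the days are separate tables, day and table cannot be told apart.

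The 12 libraries were fitted in R 4.3.3 with edgeR 4.0.16 (TMM scaling, filterByExpr, quasi-likelihood test, 4 group means), with contrasts for each day, their mean and their difference, and p-values were adjusted by Benjamini-Hochberg over all 15973 genes tested. A gene counted at both days where the mean and each day had an adjusted p below 0.05 in 1 direction. CPM values were computed from the deposited counts. DESeq2 1.42.0 and limma-voom (limma 3.58.1) were alternatives. The procedure was also run on simulated data, in which changed genes had the same KO effect at both days. Those data held no day effect, no reversed genes and no deviating library, so they do not cover these features of the real data. Intervals of 95% on counts cover counting error only.

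Named genes were Nr4a3, the 12 largest rises and falls by the weaker day (mean log2 CPM of at least 3, no overlap of libraries), up to 6 each way with similar effects at both days, up to 2 each way per list, and 4 just inside and 4 just outside the threshold. A few genes that the rule or the lists name are not reported here, though counts over lists include them. A part of the rule for genes seen in 1 genotype alone named none. Other list members, and genes of lists drawn up later, were chosen after their values were seen. Members and lists were chosen with earlier results of these data known. Promoters came from RefSeq (GRCm38.p6), 300 bases per start, and 90.6% of the genes tested matched a RefSeq symbol.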

Additional observations from a re-analysis of the deposited data

Results flagged for a closer look

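In 25 of 81 named genes the size of the KO effect differed between the days by the test of the change itself (edgeR, adjusted p below 0.05). The values are the day-14 log2 fold change minus the day-1 log2 fold change. Among genes higher in KO at both days, the effect was smaller at day 14 in Iigp1 (-3.65), Sparcl1 (-1.45), Lpl (-0.55) and Nap1l1 (-0.36). It was larger at day 14 in Sod2 (1.52), Fzd1 (1.46), Cycs (0.98) and Maml2 (0.35). Among genes lower in KO at both days, and Ndrg1, whose day-1 value did not pass, the fall was deeper at day 14 in Tspan8 (-2.84), Epha4 (-1.75), Timp3 (-1.72), Cd34 (-1.49), Col4a5 (-1.35), Nr4a3 (-1.23), Pak3 (-1.19), Sema6a (-1.18), Dcn (-0.72), Ndrg1 (-0.62) and Plin2 (-0.45). The fall was shallower at day 14 in Trpm6 (2.08), Cd14 (0.97), Gsn (0.72), Ccnb2 (0.58), Vcl (0.44) and Rarg (0.39). Over all genes that shared their direction at both days, 233 differed in size.

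Names found in the table of day 14 and not shared with day 1 held cardiac muscle transcripts in a single library. Myl2, a ventricular myosin light chain, had 216 counts in WT replicate 1 of day 14, against 3 and 2 in the other WT libraries of that day. Mybpc3, the cardiac myosin-binding protein, had 49 counts there against 3 and 3, and Tcap, a sarcomeric protein, had 36 against 0 and 3. In KO libraries of day 14, Tcap had 2, 3 and 0 counts. Their part in the results was not tested.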

How the results depend on the processing

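Without WT replicate 1 of day 14, 906 genes were higher and 782 lower in KO at both days, in place of 422 and 461. Leaving out each library in turn gave 297 to 906 higher and 358 to 782 lower at both days, and 2257 to 3976 higher and 2627 to 3920 lower on average. Genes of DNA replication higher at both days numbered 22 with library size alone and 21 with each day fitted alone, in place of 13, and 8 to 26 with a library left out. The range with a library left out was 5 to 16 for recombination repair, 1 to 3 for contractile genes higher, 3 to 5 for basement membrane lower, 7 to 12 for mitosis lower, 11 to 16 for the GTPases, 11 to 15 for the interferon list, 8 to 10 for MHC class I and 13 to 15 for nuclear and PARP proteins. The causes were not tested. Library size alone moved the day-1 median of all genes to 0.15 on the log2 scale and gave 504 higher and 403 lower at both days. DESeq2 gave 455 and 500, and limma-voom 438 and 452. No named value changed sign in these alternatives. Same-numbered KO and WT libraries of a day did not deviate together (correlations of -0.022 to 0.018), and differently numbered ones gave -0.045 to 0.034. Such values cannot show whether samples were paired, and equal numbers were not compared across the days. With a replicate block there were 422 genes higher in KO at both days and 452 lower, 2739 genes higher in KO on average and 3077 genes lower in KO on average, and the averaged log2 fold change of Nr4a3 was -1.65. Depth limits genes below about 1 CPM, such as Cnn1.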

Other observations

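Other lists had members that moved on average but seldom at both days. Among all genes tested 17.1% were higher and 19.5% lower on average, and 52.3% were called at day 1 in either direction. Of 17 tested p53 targets, 8 were lower and 2 higher in KO on average, and at single days 10 were higher and 4 lower at day 1, while 3 were higher and 12 lower at day 14. Of 26 Hox genes, which mark position along the body axis, 11 were lower and 2 higher on average, with 6 higher and 5 lower at day 1, and 1 higher and 15 lower at day 14, where 52.1% of all genes tested were called in either direction. The 15 tested genes of the NRF2 antioxidant response had 6 higher on average, and 1 of them, Sod2, at both days.

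The share of genes called on average differed between chromosomes. It ran from 10.1% to 31% higher and from 13.4% to 32.2% lower over the autosomes and X, against 17.1% and 19.5% over all genes tested. On chromosome 3, 236 of 734 tested genes were lower in KO on average and 74 higher, with a median log2 fold change of -0.11 at day 1 and -0.098 at day 14. Chromosome 6 had 212 lower and 98 higher of 713, and chromosome 10 had 199 lower and 97 higher of 731. Chromosome 13 had 134 lower and 58 higher of 529. Chromosome 18 had 118 higher and 51 lower of 381, and chromosome 11 had 262 higher and 176 lower of 1168. Chromosome 1 had 226 higher and 146 lower of 875, and chromosome 16 had 101 higher and 73 lower of 437. Chromosome 5 had medians of 0.33 at day 1 and -0.25 at day 14, while chromosome 14 had -0.20 at day 1 and 0.30 at day 14. These counts are descriptions, and what moves with them was not tested.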
